A study of Mus musculus with 12 samples.

Results

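The renin-angiotensin system of the mouse kidney was followed through 9 genes, picked by symbol from the deposited gene table: Ren1, Akr1b7, Agt, Ace, Mme, Agtr1a, Agtr1b, Agtr2 and Atp6ap2. They are 9 of the 55487 gene IDs in that table, and all 9 had enough counts to be among the 19890 genes tested. Whole-kidney RNA from mice of postnatal day 15 was sequenced in 12 libraries, 3 in each of 4 groups. The study set loss of Cep120, a centriole protein, beside loss of Pkd1, which encodes the ciliary membrane protein polycystin-1. Both losses were tied to Hoxb7, a gene of the ureteric bud and of the collecting duct that grows from it. The Cep120 KO libraries carry the genotype label Cep120 KO and titles with "homo", and the Pkd1 KO libraries carry the label Pkd1 KO and titles with "homo". The Cep120 controls and Pkd1 controls carry titles with "het" for their line but the genotype label WT, so whether they hold 1 mutant copy cannot be told from the labels. All 12 titles carry "hox" and do not say which Hox gene. The Cre allele, the exons removed, the strain and the sex are not given in the sources used here, nor whether each library stands for its own animal. The p-values below therefore measure the spread between libraries, which may be technical.

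In this hormone system renin, made by juxtaglomerular cells at the glomerular arteriole, cuts angiotensinogen to angiotensin I, and angiotensin-converting enzyme cuts that to angiotensin II. Angiotensin II acts mainly through type 1 receptors, which constrict vessels and raise sodium uptake, while the type 2 receptor is known as a receptor of the fetal kidney. The system is required for the developing kidney's vessels and papilla, and renin is made much more widely before birth than in the adult. Neprilysin, the product of Mme, takes angiotensin I down another path to angiotensin 1-7, and Atp6ap2 encodes the (pro)renin receptor, a part of the proton pump complex.

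The libraries held 23070736 to 31837973 estimated counts and 23544 to 32740 detected genes. Both replicate 3 controls stood apart from their lines in detected genes: Cep120 control 3 had 25665 against 30321 to 32740 in the rest of the Cep120 line, and Pkd1 control 3 had 31031 against 23544 to 25230 in the rest of the Pkd1 line. Without both, the same 4 of the 9 genes passed in the Pkd1 comparison and 0 in the Cep120 comparison. Over all 20591 genes tested in that fit, 9138 and 1 passed. Xist RNA, made from the inactive X of females, was under 1 CPM (a count scaled to the depth of its library) in 5 libraries, namely each Pkd1 KO library and Cep120 KO 1 and 2. In the other 7 it was 50.0 to 184 CPM. The summed RNA of 4 Y-linked genes was 105 to 147 CPM in those 5 libraries, 96.9 CPM in Pkd1 control 3 and 0 to 28.3 CPM in the rest. In the Pkd1 line, the presence of Xist and genotype cannot be told apart, and Agtr2 and Atp6ap2 are X-linked. Pkd1 control 3 held both Xist, at 50.0 CPM, and Y-linked RNA, at 96.9 CPM. Cep120 controls 1 and 2 and Cep120 KO 3 also held both. Their Y-linked RNA was 28.3 CPM in Cep120 control 1, 16.6 CPM in Cep120 KO 3 and less in Cep120 control 2. In Cep120 control 3 and Pkd1 controls 1 and 2, which held Xist as well, Y-linked RNA was 0 to 0.0651 CPM. Xist alone therefore does not give the sex of a library, and why some libraries held both was not tested. Cep120 RNA was 16.6 to 20.4 CPM in Cep120 KO and 13.7 to 18.7 CPM in its controls, and Pkd1 RNA was 23.9 to 36.4 CPM in Pkd1 KO and 13.9 to 21.6 CPM in its controls. Since Hoxb7 marks only part of the kidney and the exons removed are not given, these levels do not check the labels. The summed RNA of 10 proximal tubule markers, which identify the tissue as kidney, was 5655 to 9175 CPM outside Pkd1 KO and 799 to 1239.6 CPM in Pkd1 KO. Pkd1 KO 3 also stood apart, through adrenal cortex RNA. The sum of 8 adrenal markers was 1872 CPM there and 2.69 to 6.91 CPM in the other 11 libraries, so results on Akr1b7 and Agtr1b are given with and without it. The sum of 7 adipose markers was 1006, 50.4 and 507 CPM in Pkd1 KO 1 to 3 and 289 to 951 CPM in Pkd1 controls. That sum was 151 to 570 CPM in Cep120 KO and 548 to 702 CPM in Cep120 controls. The part of adipose RNA in the levels of the 9 genes was not tested. Cep120 controls 1 and 2 were the most alike of all pairs within a group, with a chi-squared per gene of 5.58 against 27.2 to 70.7, and remained separate libraries because they differed beyond sampling noise.

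Start sites of Ren1, Akr1b7, Ace, Agtr2 and Mme are shown here. The sequences are from RefSeq, build GRCm38.p6, plus strand, 5′ to 3′; 8 of the 9 genes (not Agtr1a) had an entry. For each window of 250 bases before a RefSeq start, the longest stretch outside annotated exons is printed. Ren1, with 164 exon bases in its window, is an exception by choice, with only the last 30 bases printed. The last 30 are also printed for the Mme start of Mme-205, whose window exons cover in full. The printed stretches of Akr1b7 and Agtr2 end 29 and 81 bases before the start. Capitals mark motif matches. Ren1 lies before its start on chromosome 1 (chr1:133350644-133350673), Akr1b7 on chromosome 6 (chr6:34412112-34412333), Ace on chromosome 11 (chr11:105967698-105967944) and Agtr2 on the X (chrX:21484374-21484543). Mme on chromosome 3 has a start that is also that of transcript Mme-205 (chr3:63295842-63295871) and one that is also that of transcript Mme-201 (chr3:63295950-63296094).
Ren1: gTATAAAagaaggctcagggggtctgggct
Akr1b7: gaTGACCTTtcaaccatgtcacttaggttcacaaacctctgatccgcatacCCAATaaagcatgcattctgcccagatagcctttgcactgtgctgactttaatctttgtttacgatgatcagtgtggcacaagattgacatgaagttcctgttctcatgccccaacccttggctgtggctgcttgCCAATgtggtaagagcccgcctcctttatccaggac
Ace: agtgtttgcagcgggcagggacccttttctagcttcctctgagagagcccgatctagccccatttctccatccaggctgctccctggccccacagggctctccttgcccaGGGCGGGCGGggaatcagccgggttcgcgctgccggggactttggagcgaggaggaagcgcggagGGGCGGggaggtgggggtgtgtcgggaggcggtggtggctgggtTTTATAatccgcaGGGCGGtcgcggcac
Agtr2: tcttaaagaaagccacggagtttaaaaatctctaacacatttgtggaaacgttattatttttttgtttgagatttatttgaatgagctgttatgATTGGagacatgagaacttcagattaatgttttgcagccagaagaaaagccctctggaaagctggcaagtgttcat
Mme start of Mme-205: ctgctcagtcgcctccaacttctccCCAAT
Mme start of Mme-201: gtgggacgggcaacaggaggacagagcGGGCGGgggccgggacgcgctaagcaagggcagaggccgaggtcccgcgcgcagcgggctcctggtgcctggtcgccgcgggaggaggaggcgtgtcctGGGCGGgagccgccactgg

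Each 250-base window was searched on both strands for 7 motifs. The TATA box was spelled TATAAA, the second motif was CCAAT, and the GC box was spelled GGGCGG. The core of a cAMP response element was spelled TGACG, and the motif bound by the adrenal and gonadal factor SF-1 was spelled AAGGTCA. The AP-1 motif was spelled TGANTCA, where N is any base, and the TEAD motif was spelled GGAATG. The letters TATAAA lay 29 bases before the start of Ren1, 30 before that of Agt and 31 before that of Agtr1b, and on the reverse strand 31 before that of Ace, against 12.4% of all 32851 promoter windows in the RefSeq table. Ace also held 4 copies of GGGCGG, a pair of which overlap, where 32.7% of all windows hold at least 1. The windows of both printed Mme starts held 2 copies, and Atp6ap2 held 2. In the window of Mme-205 they lay on the reverse strand and outside the printed bases. Another Mme start, not printed, had GGGCGG 228 bases before it. Another Ace start, also not printed, had only CCAAT, on the reverse strand 25 bases before it. CCAAT also lay in the windows of both printed Mme starts, in that of Mme-201 at 228 bases before the start and outside the printed stretch. The Mme-205 window held GGAATG, the Mme-201 window the AP-1 match TGAGTCA and the Atp6ap2 window TGACG. These motifs lay in 12.6%, 6.75% and 17.8% of all windows. AAGGTCA was found in Akr1b7 alone among the members, on the reverse strand 248 bases before the start, and in 4.08% of all windows. Of the 7 motifs as spelled, Agtr2 held only CCAAT, on the reverse strand, which 33.8% of all windows hold. Its window also holds TATATAA, after the printed stretch, but only the spelling TATAAA was searched. A match describes the letters and is not a binding site, and the build of these sequences is not the mm9 build named in the submitters' processing notes.

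Read per length, in the deposited TPM, which divides by transcript length as well as depth, Ren1 had the highest level of the 9 genes in every group and Agtr1b the lowest. In Pkd1 controls the mean level was 419 ± 60.2 TPM for Ren1, 92.2 ± 8.56 for Agt and 91.0 ± 11.4 for Atp6ap2 (SD, n = 3), the latter pair not differing beyond their spread. Ace followed at 38.5 ± 4.97 TPM, then Agtr1a at 27.5 ± 3.03 and Mme at 24.0 ± 5.97, which overlapped each other, Akr1b7 at 14.6 ± 1.41, Agtr2 at 0.879 ± 0.144 and Agtr1b at 0.193 ± 0.0904 (SD, n = 3). In Pkd1 KO the order was another. Agt, at 62.8 to 91.6 TPM, lay below Atp6ap2, at 108 to 112 TPM, in every library. Akr1b7 had the fourth highest mean, 70.4 TPM, which rested on KO 3, at 197 TPM against 6.16 and 7.77 TPM in KO 1 and 2. Ace was at 8.73 ± 2.20 TPM, below Agtr1a at 13.9 ± 2.67, Agtr2 at 14.5 ± 4.65 and Mme at 17.1 ± 2.71 (SD, n = 3). The spread between libraries of a gene differed from group to group. The coefficient of variation of CPM was 59.1% in Cep120 controls and 4.65% in Pkd1 controls for Agtr2, and 32.6% and 8.93% for Ren1. For Agt it was 3.25% in Cep120 controls, 6.90% in Pkd1 controls, 22.7% in Cep120 KO and 21.7% in Pkd1 KO.

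**Figure D1:**
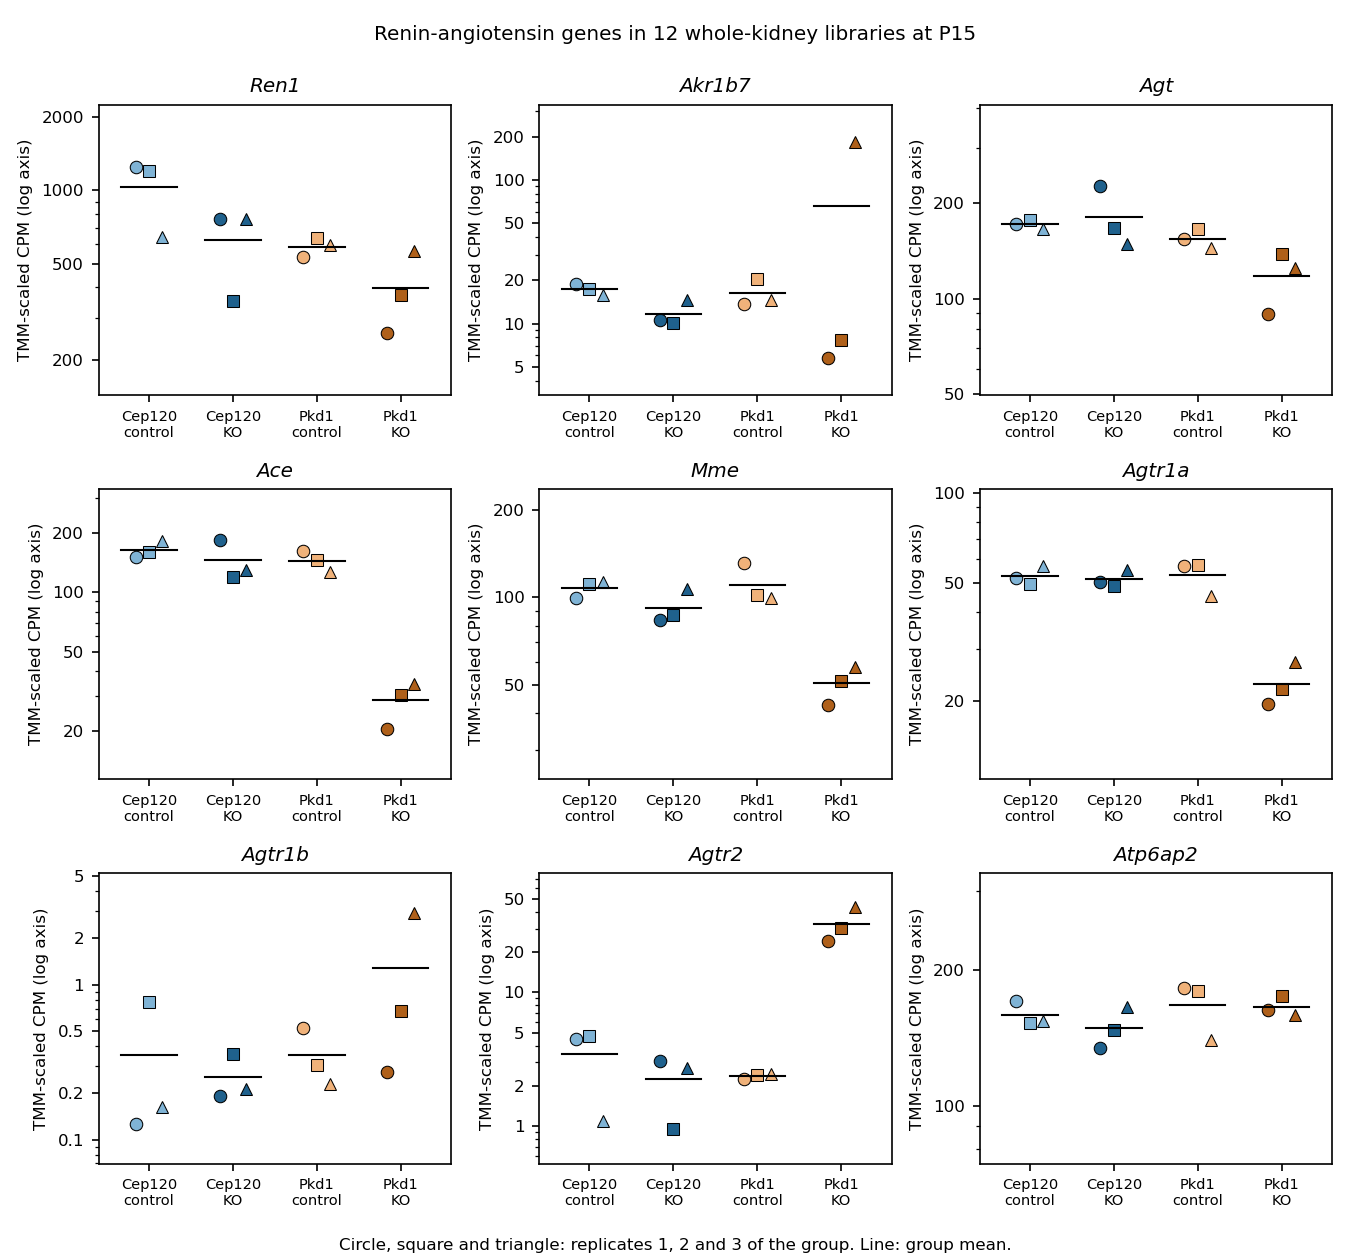
Level of each of the 9 genes in each of the 12 libraries, as CPM scaled by TMM on log axes whose range differs between panels; symbols are replicates and lines are group means of 3 libraries. Ace, Mme and Agtr1a are low and Agtr2 is high in all 3 Pkd1 KO libraries, while Akr1b7 and Agtr1b are highest in Pkd1 KO 3.

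Loss of Pkd1 went with less RNA of the converting enzyme, of neprilysin and of the main type 1 receptor, and with more RNA of the type 2 receptor. In Pkd1 KO against Pkd1 controls, 4 of the 9 genes passed the threshold (edgeR quasi-likelihood test, Benjamini-Hochberg adjusted p under 0.05 over all genes tested), 3 lower and 1 higher. Of all genes tested 44.4% passed in that comparison, 22.4% lower and 22.1% higher, so the count of 4 of 9 is near the background. All 3 Pkd1 KO libraries lay below all 3 controls for Ace, Mme, Agtr1a and Agt and above them for Agtr2, against 25.5% of all genes below and 27.4% above. These separations are in CPM scaled by TMM. That scaling was not applied to the deposited TPM, so CPM and TPM differ in library scaling as well as length. In TPM, Ace, Agtr1a and Agtr2 were separated as well, Mme and Agt overlapped between Pkd1 KO and controls, and Atp6ap2 lay higher in every Pkd1 KO library. The median log2 fold change of the 9 genes was -0.39, and that of all genes was -0.04. In whole-kidney RNA, fewer cells of a type and less RNA per cell cannot be told apart.

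Loss of Cep120 moved none of the 9 genes past the threshold, where 0% of all genes passed (edgeR quasi-likelihood test). The adjusted p of the 9 genes ran from 0.757 to 0.957, none of the 9 had an unadjusted p under 0.05 in edgeR, and DESeq2 and limma voom also called 0 of the 9. Over all genes 1201 had an unadjusted p under 0.05 in edgeR, and DESeq2 called 21 and voom 0. The only member whose Cep120 KO libraries all lay on 1 side of the controls was Akr1b7, below them in CPM (in TPM the groups overlapped), as 7.88% of all genes did; none lay wholly above, as 8.64% of all genes did. The test of the difference between the effects of Pkd1 and Cep120 loss was passed by Ace, Agtr1a, Mme and Agtr2, that is by 4 of 9 genes where 28.1% of all genes passed.

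**Figure D2:**
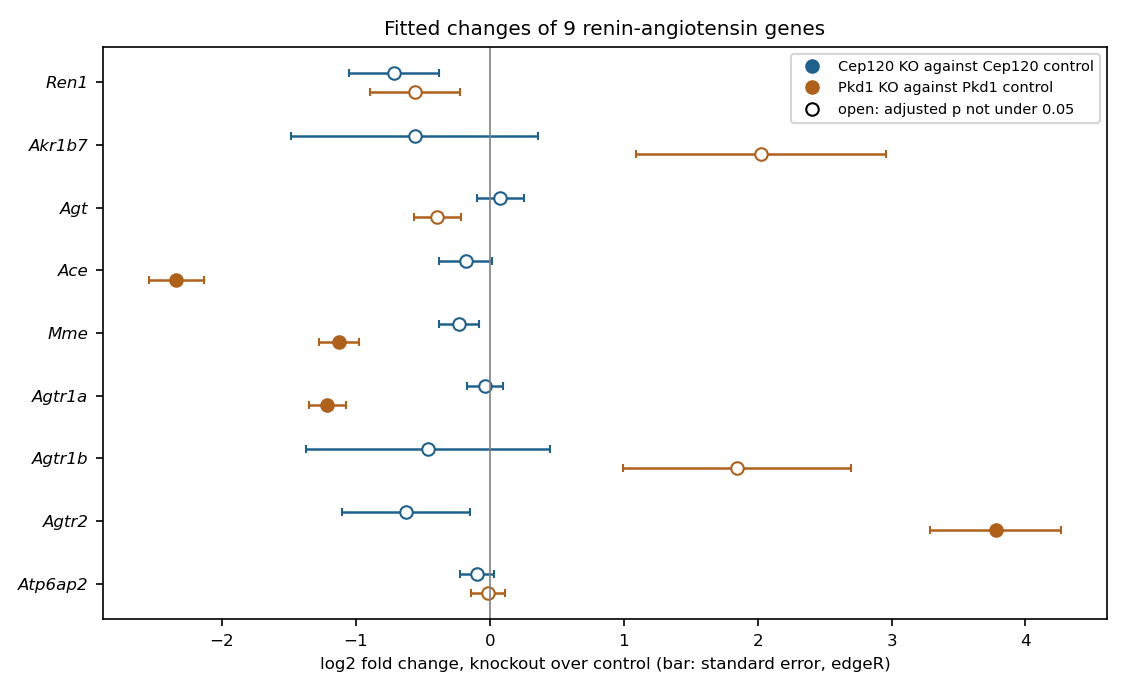
Log2 fold change of each gene, knockout over its own controls, with its standard error from edgeR, in the Cep120 and Pkd1 comparisons (3 against 3 libraries each). Filled points, with an adjusted p under 0.05, are Ace, Mme and Agtr1a on the lower side and Agtr2 on the higher side, all in the Pkd1 comparison.

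Ren1 encodes renin, the protease that starts the cascade. It stood at 1249, 1202 and 644 CPM in Cep120 controls 1 to 3 and at 767, 351 and 766 CPM in Cep120 KO 1 to 3. It stood at 531, 635 and 597 CPM in Pkd1 controls 1 to 3 and at 259, 371 and 564.5 CPM in Pkd1 KO 1 to 3. Control 3, the library with few detected genes, was low in the Cep120 line and KO 3 was high in the Pkd1 line, so the groups overlapped in both lines. The fitted log2 difference was -0.72 (SE 0.34, adjusted p 0.757) for Cep120 loss and -0.56 (SE 0.34, adjusted p 0.189) for Pkd1 loss, neither past edgeR's threshold. Without Pkd1 KO 3 the Pkd1 value was -0.91 (edgeR adjusted p 0.0583). With genes of any count kept in the fit, Ren1 passed as lower in both lines, at -0.73 (edgeR adjusted p 0.00376) and -0.56 (edgeR adjusted p 0.00631). The Pkd1 controls all lay below the Cep120 controls for Ren1 and Agt, as 3.94% of all genes did (4.18% lay wholly above). The gap was narrow: the nearest libraries were at 635 and 644 CPM for Ren1 and at 165.5 and 166.2 CPM for Agt. For Ren1 the log2 difference of -0.81 did not pass (SE 0.34, edgeR adjusted p 0.979). With genes of any count kept, Ren1 passed between the controls too, at -0.81 (edgeR adjusted p 0.000673). In TPM the controls of both lines overlapped for Ren1 and Agt. Renin RNA made up 0.0271% to 0.122% of a library's counts.

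Some mouse strains carry a near-identical neighbour gene, Ren2. The deposited line of Ren1 appears with the gene IDs of both Ren1 and Ren2 and no other line is named Ren2, so reads of the pair cannot be told apart here. All counts of Ren1 were assigned to 1 of its 2 annotated transcripts.

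The genes whose log2 CPM was most like that of Ren1 over the 12 libraries, among 12638 genes whose mean log2 CPM reached 1, were Aldoc (Pearson r 0.94), Ankrd37 (0.92), Abcc9 (0.91), Hacl1 (0.91) and Tm6sf2 (0.90). Aldoc encodes a glycolytic aldolase and Abcc9 a subunit of potassium channels of mural cells. After the group means were subtracted, which leaves the differences between libraries of a group, the closest were Magef1 (0.93), the member Agtr2 (0.93), Morn4 (0.92), Higd1b (0.91) and Lmtk2 (0.91). Ren1 and Agtr2 were both lowest of their group in Cep120 KO 2 and in Cep120 control 3, and both highest of their group in Pkd1 KO 3. These values describe 12 libraries that share their preparation and, within a group, few degrees of freedom, and they carry no test.

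Akr1b7 encodes an aldo-keto reductase that is known from renin cells and, at far higher levels, from the adrenal cortex. It stood at 18.8, 17.4 and 15.7 CPM in Cep120 controls 1 to 3 and at 10.6, 10.1 and 14.5 CPM in Cep120 KO 1 to 3. All 3 Cep120 KO libraries lay below all 3 controls, but the log2 difference of -0.56 did not pass (SE 0.92, edgeR adjusted p 0.889). It stood at 13.7, 20.4 and 14.6 CPM in Pkd1 controls 1 to 3 and at 5.72, 7.67 and 184 CPM in Pkd1 KO 1 to 3. Pkd1 KO 1 and 2 were the lowest of the 12 libraries and Pkd1 KO 3 the highest by far.

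The Pkd1 difference of Akr1b7 therefore turned on 1 library. With all libraries it was 2.02 (SE 0.93, edgeR adjusted p 0.0938), on the higher side and not past the threshold. Without Pkd1 KO 3 it was -1.29 (edgeR adjusted p 0.000972), and without both Pkd1 KO 3 and Pkd1 control 3 it was -1.37 (edgeR adjusted p 0.000976), so that Akr1b7 fell when that library was absent. Without Pkd1 KO 1 it was 2.55 (edgeR adjusted p 0.0223) and without Pkd1 KO 2 it was 2.54 (edgeR adjusted p 0.0297), past the threshold on the higher side. Pkd1 KO 3 is the library with 1872 CPM of summed adrenal markers and a count for 8 of the 8, against 4 to 7 of the 8 elsewhere. Among them were the steroid enzymes Cyp11b1 and Cyp11a1 and the cholesterol carrier Star, whose Pkd1 control means were 0, 0.0812 and 2.16 CPM. Star was at 269 CPM in Pkd1 KO 3. The part of adrenal RNA in the Akr1b7 level of that library was not tested.

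The genes most like Akr1b7 over the 12 libraries were Npy (Pearson r 0.92), Fdxr (0.89), Kcnk3 (0.88), Star (0.86) and H19 (0.84). After the group means were subtracted they were Star (0.97), Fdxr (0.95), Slc22a19 (0.95), Tmem35a (0.95) and Npy (0.94). Star and Fdxr act in steroid synthesis, Kcnk3 is a potassium channel of adrenal cortex cells, and Npy is a neuropeptide of the adrenal medulla and sympathetic nerves. In Pkd1 KO 3 Npy was at 77.8 CPM, Fdxr at 29.5 CPM and Kcnk3 at 39.4 CPM, and their Pkd1 control means were 6.32, 10.8 and 5.70 CPM. Akr1b7 shares sequence with its neighbours: 7.03% of the 31-base words of its transcript also occur in Akr1b10, 3.28% in Akr1b8 and 0% in Akr1b3, so a small part of its counts is uncertain.

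**Figure D3:**
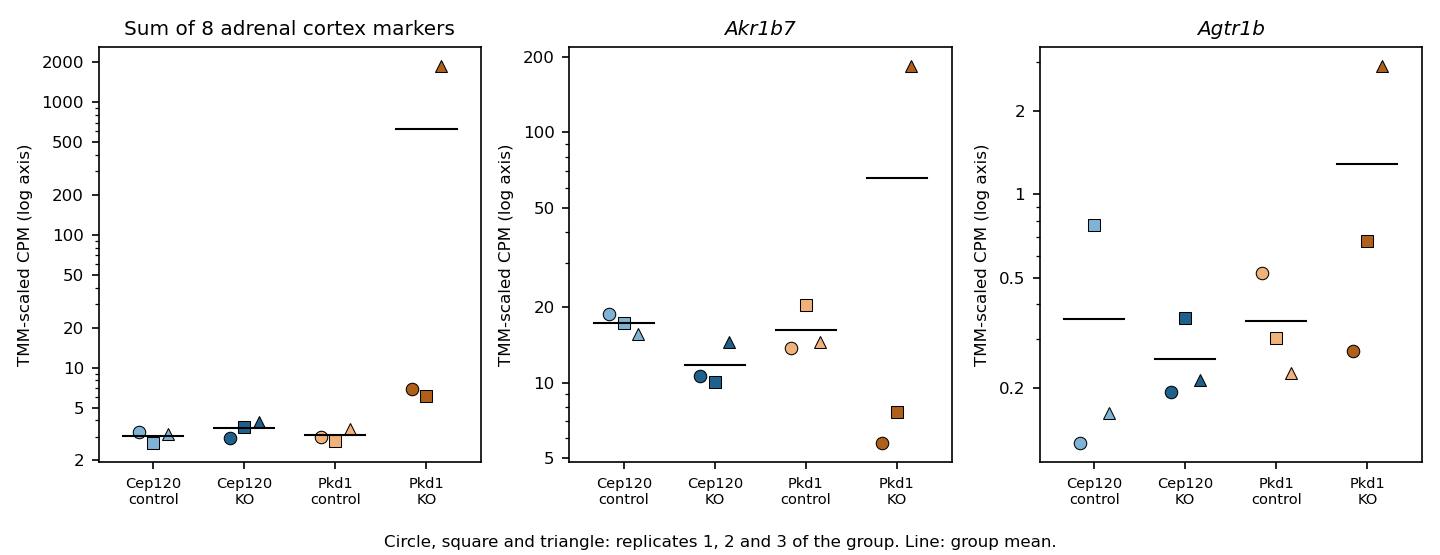
Summed CPM of 8 adrenal cortex markers, CPM of Akr1b7 and CPM of Agtr1b in each library, all scaled by TMM and on log axes. Pkd1 KO 3 is the highest library in all 3 panels, at 1872, 184 and 2.91 CPM.

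Agt encodes angiotensinogen, the substrate of renin, made in the kidney mainly by the proximal tubule. It stood at 172, 177 and 166 CPM in Cep120 controls 1 to 3 and at 228, 167 and 149 CPM in Cep120 KO 1 to 3, where the groups overlapped. It stood at 154, 166 and 144 CPM in Pkd1 controls 1 to 3 and at 89.1, 138 and 125 CPM in Pkd1 KO 1 to 3. In CPM every Pkd1 KO library was below every control, with KO 1 lowest, and in TPM the groups overlapped, at 62.8 to 91.6 in Pkd1 KO and 82.6 to 99.1 in controls. The log2 difference of -0.39 (SE 0.18) did not pass, with an edgeR adjusted p of 0.0848, and Cep120 loss gave 0.08 (SE 0.18, edgeR adjusted p 0.923). Agt passed as lower in the Pkd1 comparison under 4 of the 28 alternative settings, among them DESeq2 (-0.43, adjusted p 0.0445) and the fit without Pkd1 KO 2 (-0.54, edgeR adjusted p 0.0467).

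Ace encodes the enzyme that makes angiotensin II, present on endothelium and on the proximal tubule brush border. It stood at 161, 146 and 127 CPM in Pkd1 controls 1 to 3 and at 20.5, 30.4 and 34.6 CPM in Pkd1 KO 1 to 3. The groups were far apart, and the highest Pkd1 KO library was under the 127 to 181 CPM of all 6 control libraries. Ace fell by 2.34 log2 units (SE 0.21, edgeR adjusted p 3.91e-06), a 5.06-fold difference. In the Cep120 line it stood at 151, 161 and 181 CPM in controls 1 to 3 and at 184, 120.1 and 130.2 CPM in KO 1 to 3. Those groups overlapped, with a log2 difference of -0.18 (SE 0.20, edgeR adjusted p 0.827). The effect of Pkd1 loss on Ace was lower than that of Cep120 loss by -2.16 log2 units (SE 0.28, edgeR adjusted p 0.00021). Ace remained called as lower in the Pkd1 comparison in all 28 alternative settings, at -2.61 to -2.17. The transcripts of Ace analysed here carried 23.4% to 34.8% of its gene count, so no transcript shares are given.

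Mme encodes neprilysin, a peptidase of the proximal tubule brush border and of podocytes. It stood at 131, 102 and 99.3 CPM in Pkd1 controls 1 to 3 and at 42.7, 51.5 and 57.7 CPM in Pkd1 KO 1 to 3. The groups did not overlap, and Mme fell by 1.13 log2 units (SE 0.15, edgeR adjusted p 7.52e-05), or 2.18-fold. This holds for CPM scaled by TMM and not divided by length. In TPM Mme stood at 29.9, 18.0 and 24.2 in Pkd1 controls 1 to 3 and at 14.0, 18.1 and 19.1 in Pkd1 KO 1 to 3, where the groups overlapped and the means were 24.0 and 17.1. In the Cep120 line it stood, in CPM, at 99.9, 111 and 113 CPM in controls 1 to 3 and at 83.4, 86.9 and 107 CPM in KO 1 to 3. There KO 3 overlapped the controls, and the difference of -0.23 did not pass (SE 0.15, edgeR adjusted p 0.757). The effects of Pkd1 and Cep120 loss on Mme differed by -0.90 (SE 0.21, edgeR adjusted p 0.00772). With the presence of Xist as a term the Pkd1 call of Mme was lost, at -0.80 (edgeR adjusted p 0.0734), and it held in the other 27 alternative settings.

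The reads of Mme were split by the authors' transcript counts over 8 annotated transcripts, of which Mme-205 (8039 bases) and Mme-201 (3782 bases) carried most. Mme-205 stood at 86.5, 75.8 and 74.2 CPM in Pkd1 controls 1 to 3 and at 21.3, 22.8 and 25.6 CPM in Pkd1 KO 1 to 3. Mme-201 stood at 40.5, 23.5 and 21.6 CPM in Pkd1 controls 1 to 3 and at 19.9, 22.8 and 28.4 CPM in Pkd1 KO 1 to 3. The long transcript was lower in every Pkd1 KO library, while the values of the short one overlapped between the groups. The share of Mme-201 in the gene's counts was 25.3% ± 4.97 in Pkd1 controls and 46.8% ± 2.42 in Pkd1 KO (SD, n = 3). It was 44.4% to 49.2% in the 3 Pkd1 KO libraries and 21.8% to 36.0% in the other 9. Per kilobase, Mme-205 went from 9.81 to 2.89 CPM and Mme-201 from 7.54 to 6.27 CPM between the group means. These are descriptions: 3 against 3 libraries allow no exact permutation p under 0.10, and the split rests on an estimate over exons that the transcripts share. The short windows before both starts are printed above.

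**Figure D4:**
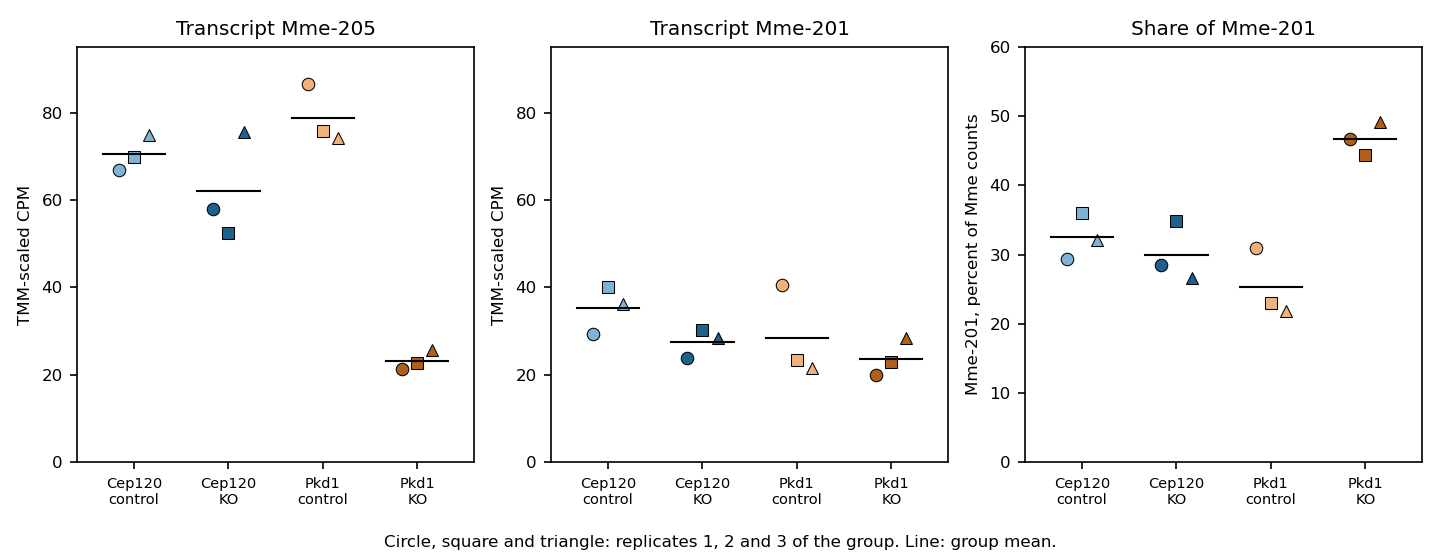
CPM of transcripts Mme-205 and Mme-201 and the percent of Mme counts given to Mme-201 in each library; all axes start at 0 and lines are means of 3 libraries. Mme-205 is low in the Pkd1 KO libraries, at 21.3 to 25.6 CPM, and the share of Mme-201 is above 44% only there.

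Agtr1a encodes the main type 1 angiotensin II receptor of the mouse kidney. It stood at 56.8, 57.5 and 45.1 CPM in Pkd1 controls 1 to 3 and at 19.6, 22.0 and 27.1 CPM in Pkd1 KO 1 to 3. Every Pkd1 KO library was under every control, and Agtr1a fell by 1.21 log2 units (SE 0.14, edgeR adjusted p 2.17e-05), or 2.32-fold. In the Cep120 line it stood at 52.0, 49.6 and 56.9 CPM in controls 1 to 3 and at 50.4, 48.9 and 55.3 CPM in KO 1 to 3. Those groups overlapped nearly in full in CPM, while in TPM the knockouts, at 29.1 to 32.2, lay just above the controls, at 27.4 to 28.8. The counts gave a log2 difference of -0.04 (SE 0.13, edgeR adjusted p 0.957). The effects of Pkd1 and Cep120 loss on Agtr1a differed by -1.18 (SE 0.19, edgeR adjusted p 0.000875). It remained called as lower in the Pkd1 comparison in all 28 alternative settings, at -1.48 to -0.91.

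Agtr1b encodes the other type 1 receptor of mice, known mainly from the adrenal gland and the pituitary. It had 3 to 21 counts in 11 libraries and 81 counts in Pkd1 KO 3. It stood at 0.521, 0.301 and 0.227 CPM in Pkd1 controls 1 to 3 and at 0.271, 0.677 and 2.91 CPM in Pkd1 KO 1 to 3. The groups overlapped, and the log2 difference of 1.84 (SE 0.85) did not pass, with an edgeR adjusted p of 0.0951. Without Pkd1 KO 3, the library with adrenal RNA, it was 0.41 (edgeR adjusted p 0.726), and without Pkd1 KO 1 it was 2.31 and passed (edgeR adjusted p 0.0422). In the Cep120 line it was 0.126 to 0.773 CPM in controls and 0.192 to 0.358 CPM in KO, with a difference of -0.46 (SE 0.91, edgeR adjusted p 0.911). The type 1 receptor transcripts share 4.29% of the 31-base words of Agtr1a and 4.39% of those of Agtr1b, so the low counts of Agtr1b may hold reads of Agtr1a.

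Agtr2 encodes the type 2 receptor, which the fetal kidney makes in its mesenchyme and which declines after birth. It stood at 2.25, 2.41 and 2.46 CPM in Pkd1 controls 1 to 3 and at 24.0, 30.5 and 43.1 CPM in Pkd1 KO 1 to 3. In counts this was 48 to 69 in the controls and 709 to 1202 in the knockouts. All 3 Pkd1 KO libraries were far above the 1.10 to 4.72 CPM of all 6 control libraries. Agtr2 rose by 3.78 log2 units (SE 0.49, edgeR adjusted p 6.26e-05), a 13.7-fold difference. Without Pkd1 KO 3 the rise was 3.51 (edgeR adjusted p 0.000281), and Pkd1 KO 1 and 2, with 6.91 and 6.12 CPM of adrenal markers, held 24.0 and 30.5 CPM of Agtr2.

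In the Cep120 line Agtr2 stood at 4.49, 4.72 and 1.10 CPM in controls 1 to 3 and at 3.08, 0.944 and 2.70 CPM in KO 1 to 3. The groups overlapped, and the difference of -0.63 did not pass (SE 0.48, edgeR adjusted p 0.778). The effects of Pkd1 and Cep120 loss on Agtr2 differed by 4.40 log2 units (SE 0.68, edgeR adjusted p 0.000601). Agtr2 is X-linked and the Pkd1 KO libraries lacked Xist. With Xist as a term the rise was 4.22 (edgeR adjusted p 0.0119), a term that within a group varies only in Cep120 KO, where KO 1 and 2 without Xist held 3.08 and 0.944 CPM and KO 3 with Xist held 2.70 CPM. Smooth muscle and pericyte markers, 10 genes summed, were also higher in Pkd1 KO, at 3098 to 4564 CPM against 592 to 870.2 CPM in Pkd1 controls, and 8 fibroblast markers summed to 3945 to 6816 CPM against 1527 to 2548 CPM. Within Pkd1 KO the order of the libraries was opposite. In KO 1 to 3, where Agtr2 was lowest in KO 1 and highest in KO 3, the muscle sums were 4564, 4126 and 3098 CPM and the fibroblast sums 6816, 5117 and 3945 CPM. Cep120 KO 2 had the highest muscle sum outside Pkd1 KO, 1087 CPM, and the lowest Agtr2 of the 12 libraries. Their part in the rise of Agtr2 was not tested.

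Atp6ap2 encodes the (pro)renin receptor. It stood at 182, 179 and 139.9 CPM in Pkd1 controls 1 to 3 and at 163, 175 and 159 CPM in Pkd1 KO 1 to 3. The groups overlapped in CPM, with a log2 difference of -0.01 (SE 0.13, edgeR adjusted p 0.945). In TPM the 3 Pkd1 KO libraries, at 108 to 112, lay above the controls, at 81.7 to 104. In the Cep120 line it was 152 to 171 CPM in controls and 134 to 166 CPM in KO, with a difference of -0.09 (SE 0.13, edgeR adjusted p 0.863). The sign of these small differences changed with the settings. Of the proton pump subunits, a list of 22 genes that includes its partner Atp6ap1, 14 fell, 2 rose and 6 did not pass after Pkd1 loss (edgeR, median log2 fold change -0.66). Atp6v1a fell by 0.95, Atp6v1c2 by 1.55, Atp6v1c1 by 0.78, Atp6v0a4 by 1.01 and Atp6v1b2 by 0.64, and Atp6ap1 stood at 0.08 without passing.

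The lists around the system were written from textbook knowledge, with earlier results of these data known. They are described by counts, beside the 44.4% of all genes called in the Pkd1 comparison. Among 22 other genes that process or bind angiotensins and kinins, 6 rose, 7 fell and 9 did not pass (edgeR, median 0.02). Klk1, the kallikrein of the connecting tubule that frees kinins, fell by 3.49, from 1535 to 137 CPM between the group means. The angiotensin-cutting aminopeptidases Enpep and Anpep fell by 1.09 and 1.74, and the kininogen Kng2 by 1.18. Agtrap, which binds the type 1 receptor and promotes its internalisation, fell by 0.57. Mas1, the receptor for angiotensin 1-7, averaged 0.437 CPM in Pkd1 KO and 0.0821 CPM in controls and did not pass (edgeR adjusted p 0.0641). The 6 that rose were Ece1, Prcp, Arap1, Dpp3, Nln and Kng1, by 0.45 to 0.83; their names were added after their values were seen.

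Brush border peptidases, the group of the proximal tubule surface that shares its site with Ace and Mme, moved together. All 10 fell after Pkd1 loss (edgeR, median log2 fold change -1.81), at -2.11 for Mep1a, -1.88 for Dpep1, -2.31 for Xpnpep2 and -1.39 for Dpp4. All 10 proximal tubule markers fell as well, and their part in the lower Ace, Mme, Agtr1a and Agt was not tested. Of 8 endothelial markers, which bear on Ace, 7 fell (median -0.72), and of 7 podocyte markers, which bear on Mme, 2 fell (median -0.21). The endothelial sum was 327 to 411 CPM in Pkd1 KO and 601 to 644 CPM in controls, and the podocyte sum was 111 to 145 CPM and 211 to 242 CPM.

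Among 26 regulators of renin cells, 7 rose, 10 fell and 9 did not pass after Pkd1 loss (edgeR, median -0.20). Adora1, the adenosine receptor that holds renin release down, rose by 2.58 (SE 0.22), from 8.50 to 51.1 CPM between the group means. Nos1, the nitric oxide synthase of the macula densa, fell by 2.26, from 1.85 to 0.381 CPM. Rbpj, the Notch pathway factor needed for renin cell identity, rose by 0.74 and the cyclooxygenase Ptgs1 by 0.68, and the liver X receptor Nr1h3 fell by 1.47.

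Of 9 genes of the aldosterone receptor and its targets, the hormone arm that angiotensin II drives, 6 rose, 1 fell and 2 did not pass after Pkd1 loss (edgeR, median 1.04). The sodium channel subunits Scnn1a, Scnn1b and Scnn1g rose by 2.46, 2.16 and 1.03, and Tsc22d3 and Per1 by 2.08 and 1.04. The receptor gene Nr3c2 and its target Sgk1 stood at -0.35 and 0.03 and did not pass; this pair was named after its values were seen. Of 6 aldo-keto reductases related to Akr1b7, 3 fell and 1 rose. Akr1b8 rose by 2.45, Akr1c14 fell by 2.53, Akr1b10 by 0.75 and Akr1a1 by 0.55, and Akr1c21 (-1.25) and Akr1b3 (-0.29) did not pass. After Cep120 loss no gene of any of these 6 lists passed (edgeR), with list medians from -0.33 to 0.00.

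**Figure D5:**
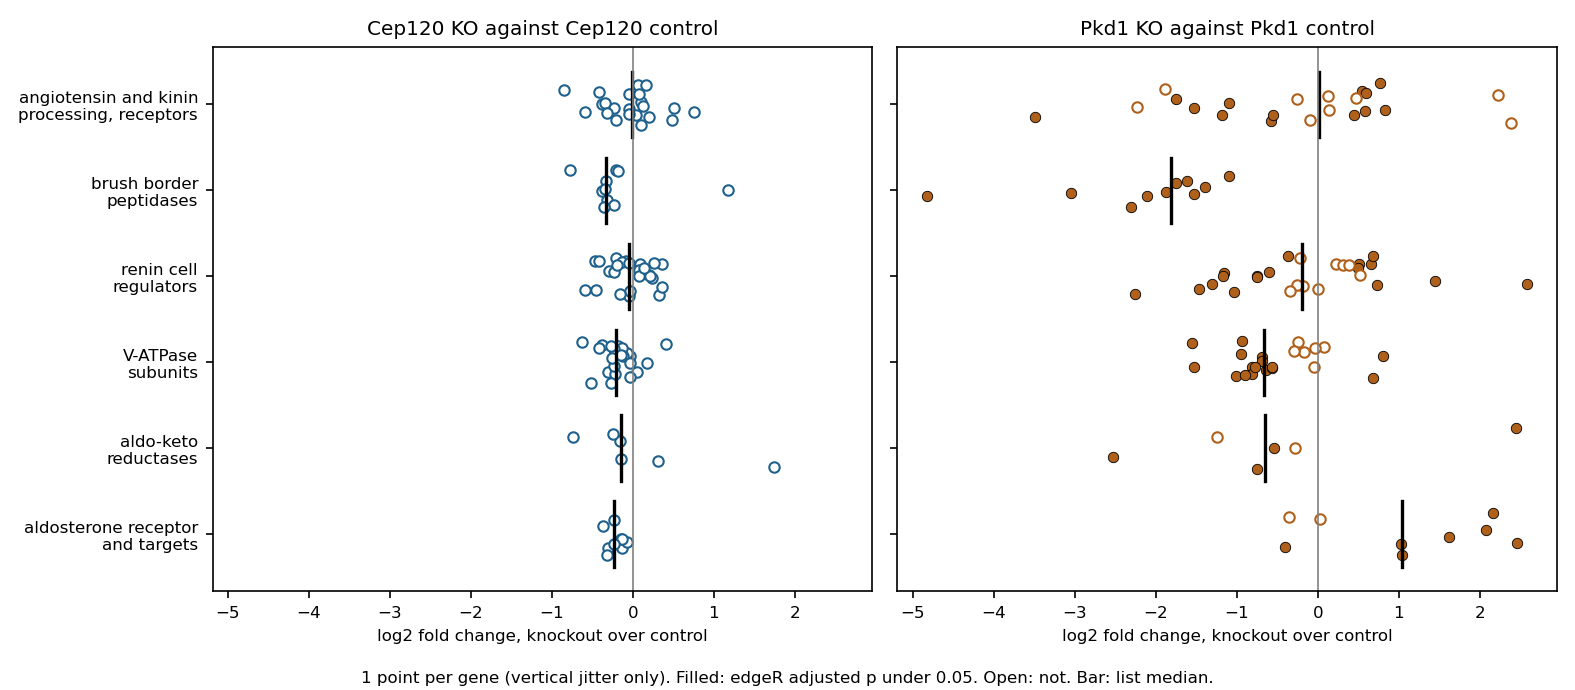
Log2 fold change of every gene of 6 lists around the renin-angiotensin system, knockout over control, for Cep120 (left) and Pkd1 (right); filled points have an edgeR adjusted p under 0.05 and bars are list medians. All points are open on the left. On the right the 10 brush border peptidases are filled and lower, with a median of -1.81, and 6 of the 9 genes of the aldosterone list are filled and higher.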

How the data were processed

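The submitters' processing notes name the mm9 build, Salmon 0.8.2, featureCounts 1.4.6-p5 with Subread, STAR 2.5.1a and bcl2fastq, without saying which made which table. Whether counting used strand is not stated, so overlapping antisense genes cannot be told apart. The deposited gene and transcript tables hold estimated counts, rounded here for genes; the authors' TPM values per gene were used to compare genes; and the deposited moderated log2 CPM only as an alternative. Of 55774 lines 287 repeated a gene ID and were dropped.

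The 9 members and all lists were chosen with earlier results of these data known. Counts were fitted in R 4.3.3 with edgeR 4.0.16: filterByExpr, TMM, 1 quasi-likelihood fit of 12 libraries in 4 groups (samples grouped by title and genotype label), Benjamini-Hochberg over 19890 genes, threshold 0.05. The fit was also run on simulated counts in which far fewer genes changed than were called in the Pkd1 comparison. That run therefore does not cover changes as wide as those after Pkd1 loss. Standard errors come from the fold change and its test, and depths of 23070736 to 31837973 counts limit weak genes such as Agtr1b. The alternatives tried were DESeq2 1.42.0, limma 3.58.1 with voom, upper quartile or RLE scaling, no filter, 5 CPM in 3 libraries, the comparison's libraries alone, a replicate block, terms for Xist, Y-linked RNA and detected genes, a threshold of 0.01, merged or omitted controls, each library left out and, chosen after seeing the data, both Pkd1 replicates 3 left out. Named genes were the members; per list, up to 5 with the smallest p in the Pkd1 comparison and close relatives of members; and for Ren1 and Akr1b7 the 5 best correlated genes, with and without group means, clone-named genes left out. A gene that this rule names is not reported here.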

Additional observations from a re-analysis of the deposited data

Results flagged for a closer look

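For 4 of the 9 genes the effect of Pkd1 loss differed from that of Cep120 loss, by the test of the difference itself (edgeR quasi-likelihood test, adjusted over all genes). The log2 difference of effects was -2.16 for Ace, from -2.34 after Pkd1 loss and -0.18 after Cep120 loss. It was -1.18 for Agtr1a, from -1.21 and -0.04, and -0.90 for Mme, from -1.13 and -0.23. For Agtr2 it was 4.40, from 3.78 and -0.63. Of all genes 28.1% passed this test.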

How the results depend on the processing

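Ace, Agtr1a and Agtr2 kept direction and call in the Pkd1 comparison in all 28 alternatives, and Mme in 27. Weak genes are limited by depth, as Agtr1b with 3 to 21 counts in 11 libraries. The cause of the changes below was not tested. Without a filter on low counts, 2 members passed after Cep120 loss, Ren1 and Akr1b7, both lower. Between the controls 1 passed (Ren1, lower in Pkd1 controls). After Pkd1 loss 7 passed, 3 higher and 4 lower, and Akr1b7 and Agtr1b, among the higher, were highest in Pkd1 KO 3. Of the 42153 genes in that fit, 344 were called after Cep120 loss, 9246 after Pkd1 loss and 248 between the controls. After Cep120 loss DESeq2 called 21 genes, 1 was called without both replicate 3 controls and 1 without Pkd1 KO 3 and Pkd1 control 3, and 0 to 2 with 1 library left out. After Pkd1 loss 8839 genes were called, 2002 with a term for Xist and 4213 with one for Y-linked RNA. The difference of effects had 5598 calls, and 2751 at the 0.01 threshold. Between the controls the count was 1 with the detected-gene term, 371 without both replicate 3 controls, 4 without Pkd1 KO 3 and Pkd1 control 3, and 0 to 4 with 1 library left out.

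Small log2 differences changed sign. After Cep120 loss Agt was -0.20 with the Xist term and -0.12 to 0.20 with 1 library left out. Agtr1a was 0.10 on the deposited log2 CPM, 0.0033 with the 5 CPM filter, 0.066, 0.13 and 0.049 with the terms for Xist, Y-linked RNA and detected genes, 0.019 without both replicate 3 controls, and -0.092 to 0.019 with 1 library left out. Agtr1b was 0.067 on the deposited log2 CPM and -0.86 to 0.80 with 1 library left out, and Atp6ap2 was 0.035 on the deposited log2 CPM and 0.059 and 0.090 with the terms for Xist and Y-linked RNA. The deposited log2 CPM moved the median of all genes from 0.01 to 0.15 there, and these 3 genes stayed below that median.

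After Pkd1 loss Akr1b7 was -1.37 without Pkd1 KO 3 and Pkd1 control 3, and -1.29 to 2.55 with 1 library left out. Atp6ap2 was 0.087 on the deposited log2 CPM, 0.22 and 0.33 with the terms for Xist and Y-linked RNA, and -0.15 to 0.056 with 1 library left out. In the difference of effects Ren1 was -0.19 without Pkd1 KO 3 and Pkd1 control 3 and -0.19 to 0.40 with 1 library left out, and Akr1b7 was -0.80 and -0.73 to 3.12. Atp6ap2 was -0.021 with upper quartile scaling, -0.0040 with the 5 CPM filter, -0.0090 with the detected-gene term, -0.0095 without both replicate 3 controls, -0.022 without Pkd1 KO 3 and Pkd1 control 3, and -0.054 to 0.15 with 1 library left out.

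Whether replicate numbers pair the libraries is not settled here. Same-numbered libraries had correlations of their deviations from -0.60 to 0.18, and differently numbered libraries were not compared. With the replicate block 4 members passed in the Pkd1 comparison, 4 in the difference of effects and 0 in the Cep120 comparison and between the controls, and over all genes 7804, 4363, 0 and 0.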
